A study of Mus musculus with 10 samples.

Results

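The genes described here encode the 3 subunits of the transcription factor NF-Y (Nfya, Nfyb and Nfyc) and the SP family factors Sp1, Sp3 and Sp4, which were proposed as partners of CDK6 on promoters. Their members on the array are all non-control probes annotated to a transcript of one of these genes. This gave 11 of 56605 probes, of which 10 passed a filter on dim signals together with 28177 probes in all. Probes were assigned to these genes by annotation alone, but the genes were chosen with earlier results of these data known. The samples were BCR-ABL+ colonies of mouse bone marrow cells, that is, cells transformed by the BCR-ABL fusion kinase of human leukaemias. Marrow came from donors aged 6 weeks, was exposed to retrovirus for 24 hours, and grew for 10 days in methylcellulose without added growth factors, from which single colonies were picked for RNA. The groups were 4 Cdk6-K43M samples, 4 Cdk6-/- samples and 1 wild-type (Cdk6+/+) pool made from 4 samples. K43M is a CDK6 mutant that lacks kinase activity, and Cdk6-/- cells lack the CDK6 protein; the labels do not say how the K43M mutant was introduced or how many colonies make up a sample. All groups shared the BCR-ABL transformation, and no further treatment was given. Each mutant sample was labelled with Cy5 on a 2-colour array against the wild-type pool in Cy3, and the pooled RNA of each genotype was run once more with the dyes exchanged. The labels describe the samples as biological replicates but do not say that they came from separate animals. The p-values thus measure only the spread between these samples and, in the wild-type comparisons, also between arrays that repeat their RNA.

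NF-Y is a trimer. The histone-fold proteins NF-YB and NF-YC form a dimer, NF-YA joins it and reads the CCAAT box, and all 3 subunits are needed for binding. CCAAT boxes are common in promoters of cell cycle genes and of MHC class II genes. SP1, SP3 and SP4 bind GC boxes through zinc fingers; SP1 and SP4 mostly activate transcription, while SP3 can activate or repress. CDK6 is a D-cyclin kinase of the G1 phase that also acts at chromatin, and it has been linked to NF-Y and SP1 in the control of antagonists of p53 in transformed blood cells.

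Promoter sequences are shown for the 3 factor genes that were lower in Cdk6-K43M (Nfyc, Sp1 and Sp4) and for Ppm1d, a p53 antagonist that was lower in both mutants. Each is the 250 bases before the most upstream start listed for the gene, 5′ to 3′ in the direction of the gene, from RefSeq on the GRCm38.p6 build. Windows at other start sites of a gene were not searched. Capitals mark the letters CCAAT or its complement ATTGG and the letters GGGCGG or its complement CCGCCC, searched on both strands. The windows are chr4:120825742-120825991 on the minus strand for Nfyc, chr15:102406066-102406315 on the plus strand for Sp1, chr12:118301441-118301690 on the minus strand for Sp4 and chr11:85311004-85311253 on the plus strand for Ppm1d.
Nfyc: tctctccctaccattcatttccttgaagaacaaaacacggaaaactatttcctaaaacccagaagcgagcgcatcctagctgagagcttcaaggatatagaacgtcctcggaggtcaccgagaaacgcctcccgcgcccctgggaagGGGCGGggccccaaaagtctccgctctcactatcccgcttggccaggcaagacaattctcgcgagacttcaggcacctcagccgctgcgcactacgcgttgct
Sp1: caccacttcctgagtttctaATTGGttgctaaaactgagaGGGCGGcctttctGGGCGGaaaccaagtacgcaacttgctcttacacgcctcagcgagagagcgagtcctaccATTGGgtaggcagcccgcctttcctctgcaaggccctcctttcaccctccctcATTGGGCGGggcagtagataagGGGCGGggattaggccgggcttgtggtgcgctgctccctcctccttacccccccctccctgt
Sp4: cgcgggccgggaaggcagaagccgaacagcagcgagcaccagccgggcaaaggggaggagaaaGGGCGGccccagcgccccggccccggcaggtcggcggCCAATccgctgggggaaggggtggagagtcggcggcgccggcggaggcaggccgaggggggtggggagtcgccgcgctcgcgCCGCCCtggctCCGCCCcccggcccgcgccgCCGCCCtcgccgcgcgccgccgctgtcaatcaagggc
Ppm1d: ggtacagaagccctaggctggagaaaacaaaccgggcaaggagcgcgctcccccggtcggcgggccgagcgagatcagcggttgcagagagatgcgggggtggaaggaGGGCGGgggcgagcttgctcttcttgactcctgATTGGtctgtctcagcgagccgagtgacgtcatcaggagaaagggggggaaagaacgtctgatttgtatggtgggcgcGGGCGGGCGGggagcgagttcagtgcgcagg
The Nfyc window held 1 GC box and no CCAAT box. The Sp1 window held 3 CCAAT boxes and 4 GC boxes, and its CCAAT box at position -84 overlapped the GC box at -81. The Sp4 window held 1 CCAAT box and 4 GC boxes. The Ppm1d window held 1 CCAAT box at -109 and 3 GC boxes. All 6 factor genes had a window, and 6 of 6 held a GC box, while 3 of 6 (Sp1, Sp3 and Sp4) held a CCAAT box. Over all 27025 genes with a window, 33.0% held a GC box, 34.5% a CCAAT box and 11.4% both. Such matches describe the letters of these windows and say nothing of which factor binds there.

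All 10 arrays had similar coverage, with 49.0% to 51.9% of probes well above background in the mutant channel and 47.9% to 52.0% in the wild-type channel, and no spot was saturated. Across probes, log2 ratios to the wild-type pool had a Pearson's r of 0.326 to 0.666 between Cdk6-K43M samples and of 0.319 to 0.587 between Cdk6-/- samples, and probes are not independent replicates. The single Cdk6 probe had log2 ratios of 0.31, 0.40, 0.33 and 0.83 in Cdk6-K43M samples and -0.37, -0.40, -0.18 and 0.00 in Cdk6-/- samples. The sources used here do not say whether this probe lies in the deleted part, so it does not check the labels. The 10 B-lineage progenitor markers were well above background in all samples. Markers of other cells also differed between groups. Of 10 granulocyte, monocyte and macrophage markers, Ngp, Camp and Mpo were not well above background in any mutant sample but were so in at least 9 of 10 wild-type channels, and S100a8 was so in 1 Cdk6-K43M sample, no Cdk6-/- sample and 10 wild-type channels. S100a9 had fitted log2 values of -3.94 in Cdk6-K43M and -4.16 in Cdk6-/-. The other 5 markers of this list were well above background in all samples, with 0.38 for Lyz2, 0.12 for Csf1r, 0.10 for Cd68, 0.06 for Itgam and -0.11 for Elane in Cdk6-K43M, and -1.17, -0.72, -1.20, 0.16 and -0.08 for the same genes in Cdk6-/-. The summed intensity of these 10 markers ranged over 5840 to 18800 in Cdk6-K43M, 6070 to 7560 in Cdk6-/- and 9360 to 10900 in the wild-type pool. This sum and those below include an offset of 50 added to each signal, so undetected markers also add to them. The sum over 8 T and NK cell markers, of which Cd3g, Cd8a and Ncr1 were not well above background in any sample, ranged over 5900 to 23000 in Cdk6-K43M, 9560 to 12700 in Cdk6-/- and 6410 to 7900 in the wild-type pool. Of this list Thy1 had log2 values of 2.79 in Cdk6-K43M and 2.14 in Cdk6-/-, while Lck had 0.16 and 0.54, Cd3e -0.02 and -0.14 and Cd4 0.01 and -0.01. The sum over 6 erythroid and megakaryocyte markers ranged over 585 to 1990 in Cdk6-K43M, 582 to 600 in Cdk6-/- and 862 to 992 in the wild-type pool. Gata1 and Itga2b were not well above background anywhere, and Klf1 and Epor were so in at most 1 sample of each mutant genotype. Of this list Pf4 had log2 values of -0.57 in Cdk6-K43M and -1.9 in Cdk6-/-, while Klf1 had -0.12 and -0.04 and Hba-a1 0.02 and -0.09. The sum over 4 stromal and endothelial markers ranged over 462 to 526 in Cdk6-K43M, 492 to 609 in Cdk6-/- and 511 to 550 in the wild-type pool, with Col1a1 and Cdh5 not well above background anywhere. Their part in the results below was not tested, and fewer cells of a type and less RNA per cell cannot be told apart.

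The comparisons with wild type asked whether loss of the kinase activity or of the whole CDK6 protein goes with other levels of these factors. Against the wild-type pool, 3 of the 10 probes were lower in Cdk6-K43M and none was higher. They were the brightest probe of Nfyc (log2 -0.32, SE 0.0569), the only kept probe of Sp1 (-0.32, SE 0.0598) and the only probe of Sp4 (-0.32, SE 0.0797), each a level of about 0.80 of the pool (folds 0.802, 0.803 and 0.799). In Cdk6-/- none of the 10 probes passed limma's moderated test. An unadjusted p under 0.05 was found there for 2 of the 10 and for 24.4% of all kept probes. The threshold was an adjusted p of 0.05 (Benjamini-Hochberg over all 28177 probes). Of all kept probes, 20.2% passed in Cdk6-K43M (10.2% lower and 10.1% higher) and 6.8% in Cdk6-/- (3.66% lower and 3.14% higher), so the 30% of members called in Cdk6-K43M is to be read against a background of 20.2%. The median over the 10 probes was -0.106 in Cdk6-K43M and -0.11 in Cdk6-/-, beside medians of -0.008 and -0.002 over all kept probes. The fitted value was positive for 1 of 10 probes in Cdk6-K43M and for 0 of 10 in Cdk6-/-. These probes stand for 6 genes and are not independent, and the share of positive values over all probes was not computed. On the single-sample arrays alone, Sp4 (0.08) and Nfya (0.04) turned positive in Cdk6-/-. In Cdk6-K43M, Nfyb A_55_P2017476 (0.07) and Sp3 (0.08) did so. Both comparisons use the same wild-type pool, which counts as 1 control sample whose own spread is left out. Without the array of the Cdk6-K43M pool none of the 3 passed, and the values were -0.29 for Nfyc (adjusted p = 0.127), -0.31 for Sp1 (adjusted p = 0.124) and -0.41 for Sp4 (adjusted p = 0.112). With standard errors widened to allow for an unmeasured spread of the wild-type pool, the Nfyc call remained, while Sp1 had an adjusted p of 0.0583 and Sp4 of 0.128. With median centring of each array in place of loess, the values were -0.08 for Nfyc, -0.12 for Sp1 and -0.19 for Sp4 and none of these passed, while the median of all probes moved to 0.112 and 88.2% of all calls in Cdk6-K43M were higher, against 49.7% with loess.

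**Figure D1:**
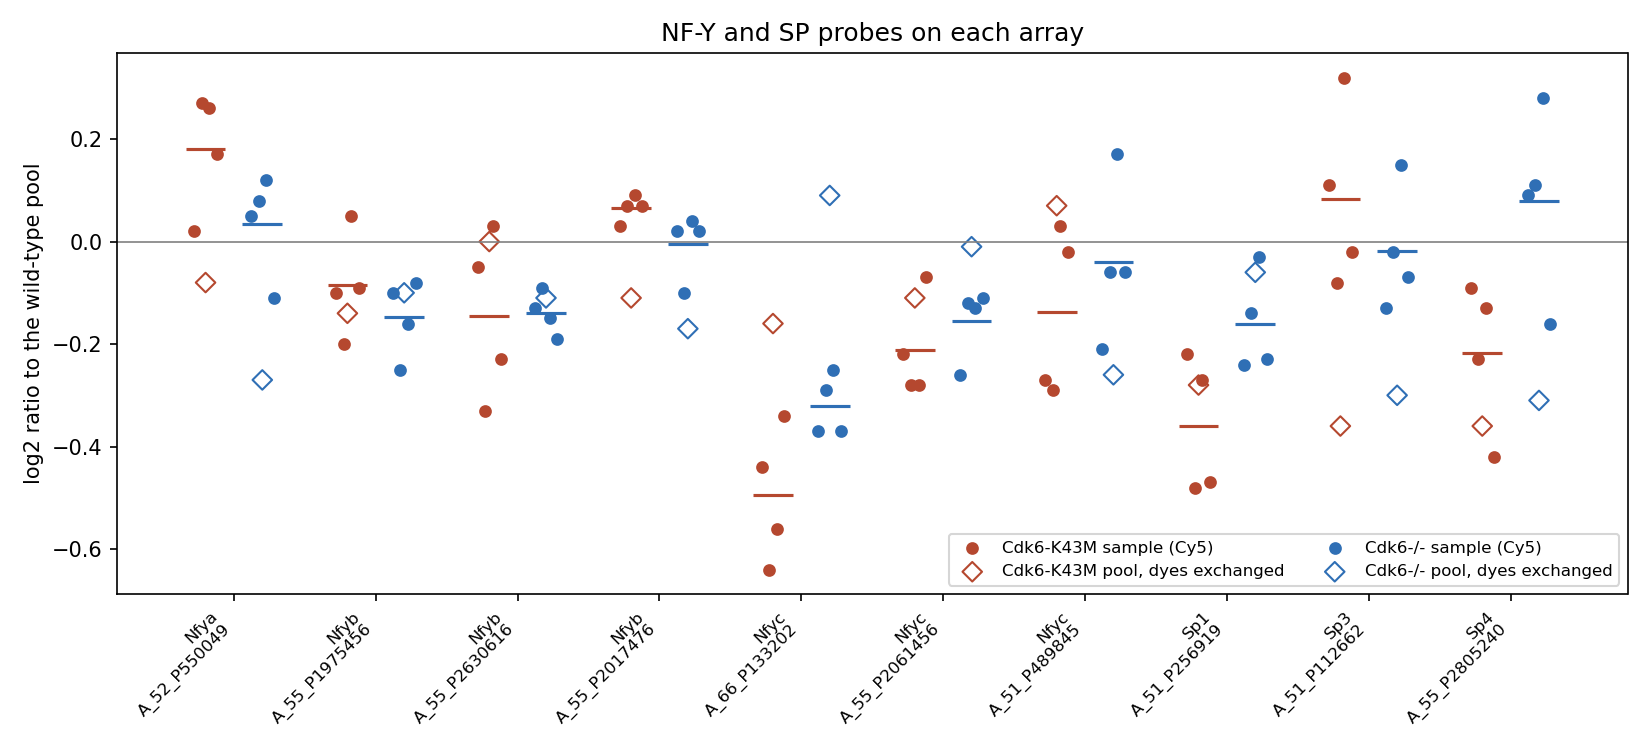
Log2 ratio to the wild-type pool for the 10 kept probes of the NF-Y subunits and SP factors (vertical axis), with Cdk6-K43M to the left of Cdk6-/- at each probe. Filled circles are single samples, bars their means and open diamonds the pooled RNA with dyes exchanged. The 4 Cdk6-K43M samples sit between -0.64 and -0.34 at the Nfyc probe A_66_P133202 and between -0.48 and -0.22 at Sp1.

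Nfya, the subunit that reads the CCAAT box, was measured by 1 probe (A_52_P550049). Its log2 ratio was 0.02, 0.27, 0.26 and 0.17 in Cdk6-K43M replicates 1 to 4 and -0.08 in the exchanged-dye Cdk6-K43M pool. In Cdk6-/- it was 0.05, 0.08, 0.12 and -0.11, and -0.27 in the exchanged-dye Cdk6-/- pool. The single samples of both genotypes overlapped, and in both genotypes the exchanged-dye pool lay below all single samples. The fitted change was 0.04 (SE 0.0583, limma adjusted p = 0.666) in Cdk6-K43M and -0.11 (SE 0.0583, adjusted p = 0.278) in Cdk6-/-, so neither passed. Its log2 intensity averaged 9.16 ± 0.14 (SD, n = 4) in Cdk6-K43M, 9.01 ± 0.085 (n = 4) in Cdk6-/- and 8.99 ± 0.11 in the wild-type pool over 10 arrays. Here and below, the SD of the pool is over repeat arrays of the same RNA, not between samples. The averages are not adjusted for dye, with mutant samples in Cy5 and the pool mostly in Cy3.

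Nfyb, a histone-fold subunit, was measured by 3 probes, and none passed in any comparison. The brightest (A_55_P1975456) had log2 ratios of -0.10, -0.20, 0.05 and -0.09 in Cdk6-K43M and -0.14 in the pool. The Cdk6-/- samples had -0.10, -0.25, -0.16 and -0.08, and their pool -0.10. All 5 Cdk6-/- arrays were below the wild-type pool, and the genotypes overlapped. Its fitted change was -0.10 (limma adjusted p = 0.237) in Cdk6-K43M and -0.14 (SE 0.0537, adjusted p = 0.138) in Cdk6-/-. Its log2 intensity averaged 9.55 ± 0.11 (SD, n = 4) in Cdk6-K43M, 9.53 ± 0.061 (n = 4) in Cdk6-/- and 9.65 ± 0.072 in the wild-type pool. The second probe (A_55_P2630616) gave -0.09 and -0.11 in Cdk6-K43M and Cdk6-/-, and the third (A_55_P2017476) -0.02 and -0.09. The third probe had 4 positive single samples in Cdk6-K43M and 3 in Cdk6-/-, so the 3 probes differed in the sign of their single-sample ratios.

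Nfyc, the partner of Nfyb in the histone-fold dimer, had the lowest ratios of the NF-Y subunits. Its brightest probe (A_66_P133202) had log2 ratios of -0.44, -0.64, -0.56 and -0.34 in Cdk6-K43M replicates 1 to 4 and -0.16 in the pool. In Cdk6-/- it had -0.37, -0.29, -0.25 and -0.37, and 0.09 in the pool. All 8 single samples were below the wild-type pool, the genotypes overlapped, and the pools with exchanged dyes lay above every single sample of their genotype. The dye term of this probe was -0.19 (limma adjusted p = 0.0382), the only one of the 10 that passed, against 5.49% of all kept probes. With the dye term in the fit the change was -0.32 in Cdk6-K43M (adjusted p = 0.0041, 95% interval -0.45 to -0.19) and -0.12 in Cdk6-/- (adjusted p = 0.212, interval -0.25 to 0.00). On the single-sample arrays alone, without a dye term, Nfyc was also lower in Cdk6-/- (-0.32, adjusted p = 0.0107). Its log2 intensity averaged 12.63 ± 0.044 (SD, n = 4) in Cdk6-K43M, 12.80 ± 0.10 (n = 4) in Cdk6-/- and 13.08 ± 0.12 in the wild-type pool.

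The other probes of Nfyc gave smaller values. Probe A_55_P2061456 had log2 ratios of -0.22, -0.28, -0.28 and -0.07 in Cdk6-K43M and -0.11 in the pool, against the wild-type pool. The Cdk6-/- samples had -0.26, -0.12, -0.13 and -0.11, and their pool -0.01. All 10 arrays were negative, with fitted changes of -0.16 (SE 0.0517, limma adjusted p = 0.0578) in Cdk6-K43M and -0.09 (adjusted p = 0.312) in Cdk6-/-. Probe A_51_P489845 ranged from -0.29 to 0.03 over the Cdk6-K43M samples and from -0.21 to 0.17 over the Cdk6-/- samples, with fitted changes of -0.10 and -0.08. The 3 Nfyc probes thus shared the sign of the fitted change, and 1 of 3 passed in Cdk6-K43M. A pseudogene of Nfyc is annotated, and whether these probes also read it was not tested.

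Sp1, the founding member of the SP family, was measured by 1 bright probe (A_51_P256919). Its log2 ratios were -0.22, -0.48, -0.27 and -0.47 in Cdk6-K43M and -0.28 in the pool. In Cdk6-/- they were -0.24, -0.14, -0.03 and -0.23, and -0.06 in the pool. All 10 arrays were below the wild-type pool, and 1 Cdk6-K43M sample lay within the Cdk6-/- range. The fitted change was -0.32 in Cdk6-K43M (limma adjusted p = 0.00543, 95% interval -0.45 to -0.18) and -0.11 in Cdk6-/- (SE 0.0598, adjusted p = 0.273). The dye term was small for this probe (-0.04, adjusted p = 0.714). Its log2 intensity averaged 10.94 ± 0.11 (SD, n = 4) in Cdk6-K43M, 11.18 ± 0.17 (n = 4) in Cdk6-/- and 11.31 ± 0.11 in the wild-type pool. The second Sp1 probe (A_55_P2744864) was the one that failed the filter, since it was well above background in no Cdk6-K43M sample, 1 of 4 Cdk6-/- samples and none of 10 wild-type channels.

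Sp3, which competes with SP1 for GC boxes, showed no change that passed. Its probe (A_51_P112662) had log2 ratios of 0.11, -0.08, 0.32 and -0.02 in Cdk6-K43M and -0.36 in the pool. Among Cdk6-/- samples the ratios were -0.13, -0.02, 0.15 and -0.07, and -0.30 in their pool. The single samples lay on both sides of the wild-type pool in both genotypes, while both exchanged-dye pools were below them all. The fitted change was -0.11 (limma adjusted p = 0.305) in Cdk6-K43M and -0.18 (SE 0.0726, adjusted p = 0.153) in Cdk6-/-. Its log2 intensity averaged 10.57 ± 0.11 (SD, n = 4) in Cdk6-K43M, 10.48 ± 0.18 (n = 4) in Cdk6-/- and 10.54 ± 0.14 in the wild-type pool.

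Sp4, known mainly for its roles in neurons, was measured by 1 probe (A_55_P2805240). Its log2 ratios were -0.09, -0.23, -0.13 and -0.42 in Cdk6-K43M and -0.36 in the pool. In Cdk6-/- they were 0.09, 0.11, 0.28 and -0.16, and -0.31 in the pool. All 5 Cdk6-K43M arrays were below the wild-type pool, while 3 of 4 Cdk6-/- samples were above it and their pool was below. The fitted change was -0.32 in Cdk6-K43M (limma adjusted p = 0.0179, 95% interval -0.50 to -0.15) and -0.08 in Cdk6-/- (SE 0.0797, adjusted p = 0.598). The call in Cdk6-K43M was lost on the single-sample arrays alone, where the value was -0.22, and without the Cdk6-/- pool array, where it was -0.29. Its log2 intensity averaged 8.28 ± 0.23 (SD, n = 4) in Cdk6-K43M, 8.59 ± 0.19 (n = 4) in Cdk6-/- and 8.52 ± 0.085 in the wild-type pool. Unlike the fitted change, these averages are not adjusted for dye.

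Whether the mutants differ from each other was tested on the 8 arrays of single samples, in which the shared pool and the dye drop out. None of the 10 probes passed limma's test between Cdk6-K43M and Cdk6-/-, where 0.454% of all kept probes passed. An unadjusted p under 0.05 was found for 1 of the 10 and for 14% of all kept probes. The difference was -0.18 for Nfyc (SE 0.0848, adjusted p = 0.386, 95% interval -0.37 to 0.01), -0.20 for Sp1 (SE 0.0897, adjusted p = 0.365, interval -0.40 to 0.00) and -0.30 for Sp4 (SE 0.113, adjusted p = 0.297, interval -0.55 to -0.04). For Nfya it was 0.14 (SE 0.0872, adjusted p = 0.497, interval -0.05 to 0.34). A lower level of Nfyc, Sp1 or Sp4 that is particular to Cdk6-K43M was therefore not shown, and the intervals hold differences as large as the changes from the wild-type pool. The arrays lay on 3 slides, each with samples of both genotypes, which allowed the difference to be taken within a slide. For Nfyc it was -0.07, -0.18 and -0.28 on slides 1 to 3, and for Sp4 -0.18, -0.38 and -0.24, so the sign was the same on each slide. For Sp1 it was 0.02, -0.34 and -0.13, with the genotypes nearly equal on slide 1. Slides 1 and 3 held 1 sample of each genotype and slide 2 held 2 of each. These 3 genes were picked for their calls on the same arrays, so the signs within slides add no separate support for a difference. How often other probes kept their sign on every slide was not computed.

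**Figure D2:**
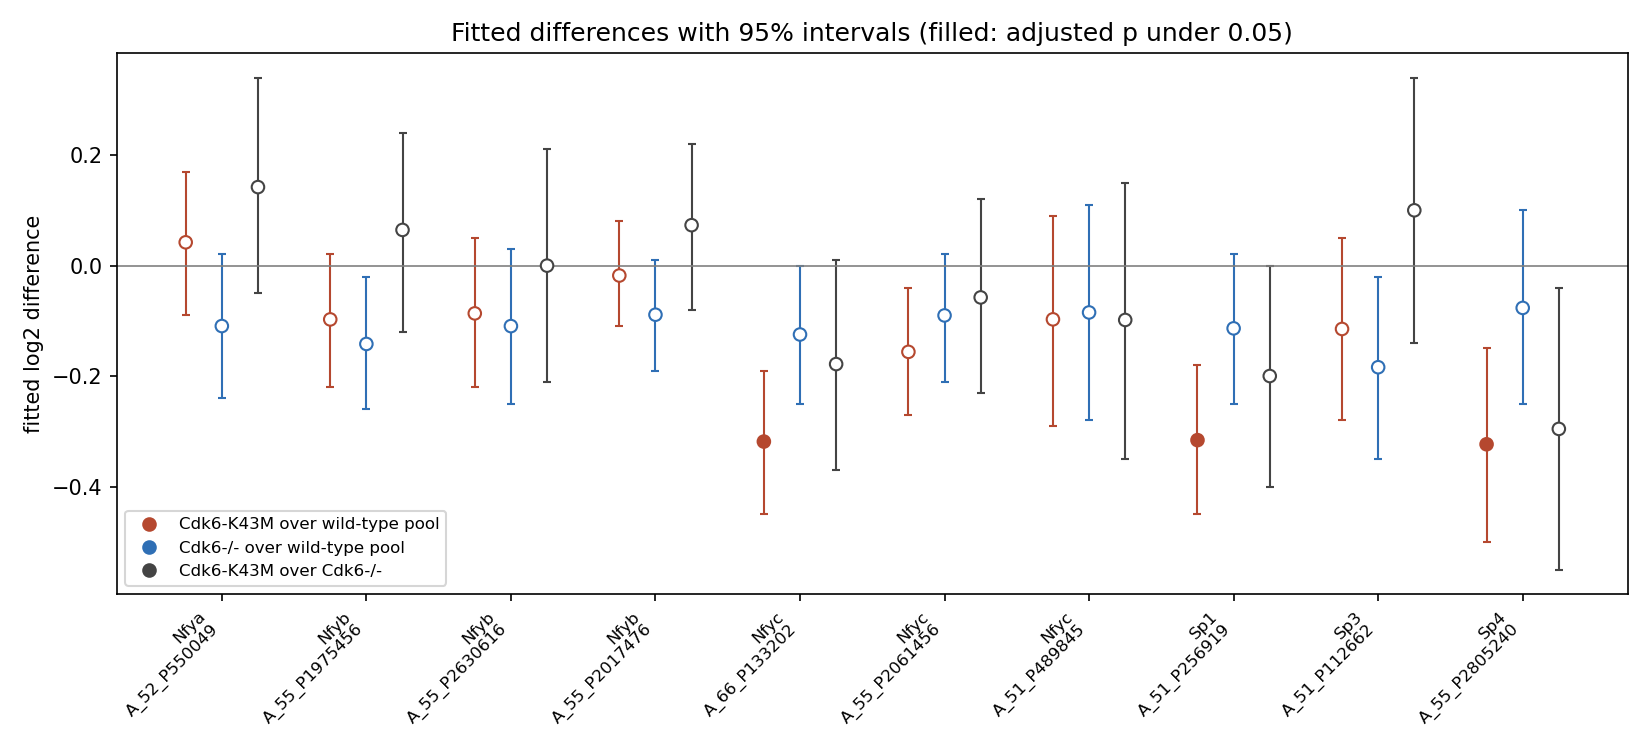
Fitted log2 differences (vertical axis) with 95% intervals for the 10 kept probes: Cdk6-K43M over the wild-type pool, Cdk6-/- over the wild-type pool, and Cdk6-K43M over Cdk6-/- (left to right at each probe). Filled points had an adjusted p under 0.05; these are Nfyc A_66_P133202, Sp1 and Sp4 in Cdk6-K43M, each at -0.32.

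Genes known to depend on NF-Y through CCAAT boxes were described with 1 probe a gene. Of 21 such genes, all measured, 4 were lower in Cdk6-K43M, none was higher and 17 did not pass, and the median was -0.084. In Cdk6-/- 3 were lower, none was higher and 18 did not pass, with a median of -0.136. Over all 12997 named genes, 25.3% passed in Cdk6-K43M (12.4% lower and 12.9% higher) and 8.99% in Cdk6-/- (5.07% lower and 3.92% higher), with medians of -0.003 and -0.014. With median centring in place of loess, 2 NF-Y target genes were higher and 1 lower in Cdk6-K43M, with a median of 0.10, so the balance turned; in Cdk6-/- 1 was lower and the median was -0.103. Ccnb1, which encodes the mitotic cyclin B1, had log2 ratios of -0.69, -0.90, -0.50 and -0.64 in Cdk6-K43M and -0.28 in the pool, against -0.55, -0.24, -0.55 and -0.51 in Cdk6-/- and -0.11 in the pool. It was below the wild-type pool on all 10 arrays and fell by 0.49 (SE 0.0735, limma adjusted p = 0.00178) in Cdk6-K43M and by 0.28 (adjusted p = 0.0495) in Cdk6-/-. Its other 2 probes had -0.29 (adjusted p = 0.0492) and -0.23 (adjusted p = 0.0835) in Cdk6-K43M, and -0.29 (adjusted p = 0.08) and -0.30 (adjusted p = 0.0644) in Cdk6-/-. Cd74, the invariant chain of MHC class II, fell by 1.27 (SE 0.266, adjusted p = 0.00888) in Cdk6-K43M and by 1.32 (adjusted p = 0.0204) in Cdk6-/-. Its single samples spread widely, from -2.63 to -0.76 in Cdk6-K43M and from -1.92 to -1.17 in Cdk6-/-. Hspa5, the endoplasmic reticulum chaperone BiP, fell by 0.39 (adjusted p = 0.0243) in Cdk6-K43M and by 0.42 (adjusted p = 0.0386) in Cdk6-/- on its brightest probe, and its other 2 probes did not pass. Top2a, the topoisomerase of chromosome condensation, fell by 0.28 (adjusted p = 0.0271) in Cdk6-K43M, and its value of -0.26 (adjusted p = 0.0663) in Cdk6-/- did not pass. None of the 21 genes passed between the mutants, and the median difference was 0.02. By limma none of the 21 had an unadjusted p under 0.05 there, beside 14% of all kept probes.

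Of 16 genes known to depend on SP factors through GC boxes, 6 were lower and 1 higher in Cdk6-K43M, and 9 did not pass. In Cdk6-/- 5 were lower, 1 was higher and 10 did not pass. Over all named genes, 12.4% were lower and 12.9% higher in Cdk6-K43M, and 5.07% lower and 3.92% higher in Cdk6-/-. The median was -0.217 in Cdk6-K43M and -0.248 in Cdk6-/-. With median centring 2 were lower and 1 higher in Cdk6-K43M, with a median of 0.001, and 2 lower and 1 higher in Cdk6-/-, with a median of -0.217. In Cdk6-K43M the smallest p-values by limma were those of Pola1, Vegfa and Tyms. Pola1, the catalytic subunit of DNA polymerase alpha, had -0.58 (SE 0.096, adjusted p = 0.00279). Vegfa, which encodes a growth factor of blood vessels, had -0.53 (adjusted p = 0.00488), and Tyms, thymidylate synthase, had -0.43 (adjusted p = 0.00608). The other Vegfa probes had -0.61 (adjusted p = 0.00302), -0.45 (adjusted p = 0.00772) and -0.03 (adjusted p = 0.862). The gene that rose was Ccnd1, cyclin D1 (1.45, SE 0.319, adjusted p = 0.011), with log2 ratios of 0.99, 0.99, 1.07 and 2.54 in Cdk6-K43M samples and -0.63, 1.32, -0.27 and 0.39 in Cdk6-/- samples. In Cdk6-/- the smallest p-values were those of Cdkn1a, the cell cycle inhibitor p21 (-0.80, SE 0.137, adjusted p = 0.0112), Pcyt1a, an enzyme of phosphatidylcholine synthesis (-0.45, adjusted p = 0.0173), and Igf1r, the insulin-like growth factor receptor, which rose (0.52, adjusted p = 0.0181). Cdkn1a ranged from -0.79 to 0.36 over the Cdk6-K43M samples and from -0.88 to -0.76 over the Cdk6-/- samples, so the ranges overlapped. None of the 16 genes passed limma's test between the mutants, and the median difference was 0.037. An unadjusted p under 0.05 was found for 4 of the 16 genes, beside 14% of all kept probes. Of 13 of these genes with a promoter window, 11 held a GC box and 5 a CCAAT box.

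Prmt5, Ppm1d and Mdm4 are antagonists of p53 that were proposed as joint targets of CDK6 with NF-Y and SP1. In Cdk6-K43M 2 of 3 were lower and 1 did not pass, with a median of -0.244, and in Cdk6-/- 1 was lower and 2 did not pass, with a median of -0.067. Among all named genes, 12.4% were lower in Cdk6-K43M and 5.07% in Cdk6-/-. With median centring 1 was lower and 1 higher in Cdk6-K43M. Ppm1d, the phosphatase WIP1, had log2 ratios of -0.32, -0.56, -0.32 and -0.45 in Cdk6-K43M and -0.51 in the pool. In Cdk6-/- it had -0.36, -0.31, -0.25 and -0.46, and -0.44 in the pool. It was below the wild-type pool on all 10 arrays, by 0.46 (SE 0.0557, limma adjusted p = 0.000634) in Cdk6-K43M and by 0.39 (SE 0.0557, adjusted p = 0.00465) in Cdk6-/-. The second Ppm1d probe had -0.43 (adjusted p = 0.00356) in Cdk6-K43M and -0.28 (adjusted p = 0.0529) in Cdk6-/-. Mdm4, an inhibitor of p53 that resembles MDM2, had -0.21, -0.31, -0.30 and -0.51 in Cdk6-K43M and -0.13 in the pool. The Cdk6-/- samples were at -0.08, 0.03, -0.18 and -0.03, and their pool at 0.07. The single samples of Mdm4 did not overlap between the genotypes, though how often this holds over all probes was not computed. Its brightest probe was lower in Cdk6-K43M (-0.24, SE 0.0579, adjusted p = 0.0153) and not in Cdk6-/- (0.01, adjusted p = 0.906), and its other 3 probes were at -0.01, -0.13 and -0.14 in Cdk6-K43M and did not pass. The difference between the mutants of -0.27 (SE 0.0864, adjusted p = 0.234) did not pass. Prmt5, an arginine methyltransferase, had 0.09, 0.19, 0.17 and 0.21 in Cdk6-K43M and 0.03 in the pool, and -0.01, 0.02, -0.18 and 0.17 in Cdk6-/- and -0.13 in the pool. Its fitted values of 0.10 (adjusted p = 0.265) in Cdk6-K43M and -0.07 (adjusted p = 0.512) in Cdk6-/- did not pass. The Prmt5 window held 4 CCAAT boxes and no GC box, and the Mdm4 window neither. Only the window at the most upstream listed start was searched, so other promoters of these genes may differ.

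Among 20 partner factors and cofactors of NF-Y and SP proteins, 4 were lower and 2 higher in Cdk6-K43M, and 2 lower and 2 higher in Cdk6-/-. This is to be read against 25.3% of all named genes that passed in Cdk6-K43M (12.4% lower and 12.9% higher). In Cdk6-/- that share was 8.99% (5.07% lower and 3.92% higher). Their medians were -0.038 and 0.02. With median centring the balance in Cdk6-K43M turned to 6 higher and 2 lower, with a median of 0.102, and 1 was higher and 1 lower in Cdk6-/-. Hdac1, a histone deacetylase that binds SP1 and SP3, had log2 ratios of -0.87, -0.81, -0.82 and -0.59 in Cdk6-K43M and -0.63 in the pool. In Cdk6-/- it had -0.19, -0.15, -0.18 and -0.06, and 0.05 in the pool. The genotypes did not overlap, though how often this holds over all probes was not computed. Hdac1 fell by 0.69 in Cdk6-K43M (SE 0.0551, limma adjusted p = 6.99e-05). It was the only gene of these lists that passed between the mutants (-0.63, SE 0.0825, adjusted p = 0.0175), where 0.5% of all named genes passed, and its other probe also passed there (-1.33, adjusted p = 0.0185). Atf6, an endoplasmic reticulum stress factor that works with NF-Y, fell in both, by 0.46 (adjusted p = 0.000424) in Cdk6-K43M and by 0.33 (adjusted p = 0.0073) in Cdk6-/-. Rfxap, a subunit of the RFX complex that joins NF-Y on MHC class II promoters, rose by 0.40 (adjusted p = 0.00133) in Cdk6-K43M and by 0.23 (adjusted p = 0.0414) in Cdk6-/-. Ogt, the enzyme that adds O-GlcNAc to SP1 and other proteins, rose by 0.60 (adjusted p = 0.00146) in Cdk6-K43M and by 0.43 (adjusted p = 0.0221) in Cdk6-/-. Its other probe had 0.48 (adjusted p = 0.00946) in Cdk6-K43M and 0.26 (adjusted p = 0.151) in Cdk6-/-. E2f1, a factor of S-phase entry that binds SP1, fell by 0.42 (adjusted p = 0.00669) in Cdk6-K43M and by 0.39 (adjusted p = 0.0238) in Cdk6-/-. The Hdac1 difference between the mutants lost its call in 9 of 17 settings. Median centring gave -0.46 (adjusted p = 0.0805), and the replicate number as a block gave -0.63 (adjusted p = 0.0577). Leaving out any one Cdk6-/- replicate gave -0.64 to -0.60 with adjusted p of 0.0503 to 0.0651, leaving out Cdk6-K43M replicate 1 or 3 gave -0.59 (adjusted p = 0.0643) or -0.61 (adjusted p = 0.067), and slide as a block gave -0.63 (adjusted p = 0.0709).

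Of 11 relatives, 7 were measured, and the SP family genes Sp5, Sp7, Sp8 and Sp9 had no probe that passed the filter. In Cdk6-K43M 1 was lower and 1 higher, and in Cdk6-/- 1 was lower, with medians of -0.003 and -0.042. The shares of all named genes that passed were 25.3% in Cdk6-K43M and 8.99% in Cdk6-/-. With median centring 2 were higher and 1 lower in Cdk6-K43M, with a median of 0.145, and none passed in Cdk6-/-. Sp2, an SP family member that acts at CCAAT-box promoters with NF-Y, fell by 0.44 (SE 0.0702, limma adjusted p = 0.00229) in Cdk6-K43M and by 0.29 (adjusted p = 0.0359) in Cdk6-/- on its brightest probe. It was below the wild-type pool on all 10 arrays, from -0.53 to -0.35 over the Cdk6-K43M samples and from -0.47 to -0.03 over the Cdk6-/- samples. Its other probe was at -0.08 (adjusted p = 0.451) in Cdk6-K43M and -0.04 (adjusted p = 0.801) in Cdk6-/-. Dr1, a histone-fold repressor of TATA-dependent transcription, rose by 0.41 (adjusted p = 0.00346) in Cdk6-K43M, and its value of 0.23 (adjusted p = 0.0757) in Cdk6-/- did not pass.

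Of the list genes named here, the calls of Ppm1d, Hdac1 and Atf6 in Cdk6-K43M held in all 19 alternative settings run, with highest adjusted p of 0.0375 for Ppm1d, 0.0102 for Hdac1 and 0.0286 for Atf6. The other calls were lost in at least 1 setting. Without the pool array of the same genotype, the median of the NF-Y target genes was -0.123 in Cdk6-K43M and -0.097 in Cdk6-/-, and that of the SP target genes was -0.227 in Cdk6-K43M and -0.272 in Cdk6-/-. Without the Cdk6-K43M pool array, none of the NF-Y or SP target genes and relatives passed in Cdk6-K43M, and without the Cdk6-/- pool array no gene of any of the 5 lists passed in Cdk6-/-. The Cd74 call in Cdk6-/- was also lost without Cdk6-/- replicate 1. The call of Ccnb1 in Cdk6-/- was lost in 15 of 19 settings and that of Rfxap in Cdk6-/- in 12 of 19.

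**Figure D3:**
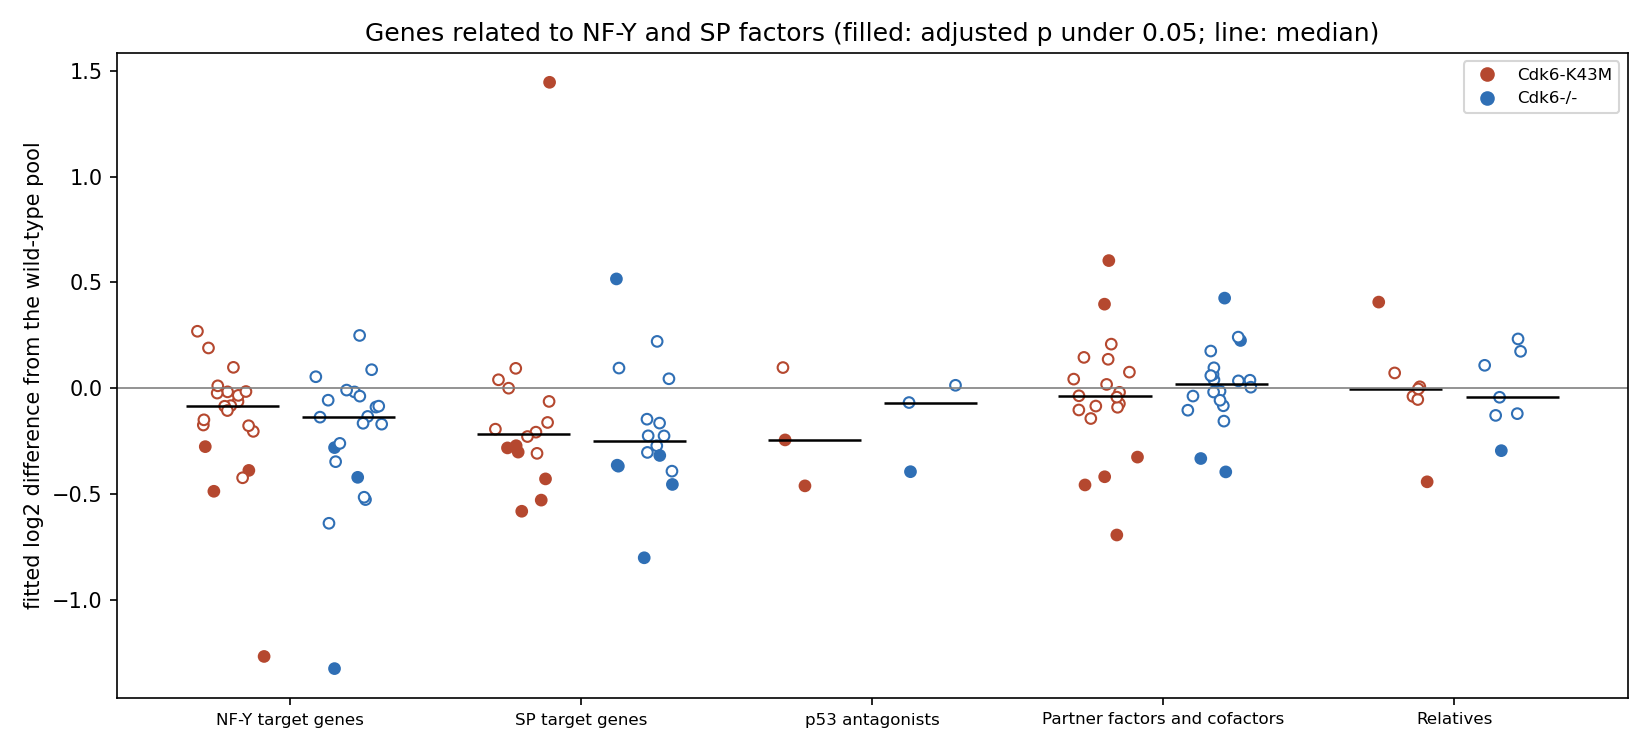
Fitted log2 difference from the wild-type pool (vertical axis) for genes related to NF-Y and SP factors, with Cdk6-K43M to the left of Cdk6-/- in each list. Each circle is 1 gene, filled circles had an adjusted p under 0.05, and lines are list medians, such as -0.217 and -0.248 for the SP target genes.

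The genes whose log2 ratios ran most like those of each factor over the 8 single-sample arrays were found among 12035 named genes. This is a description only, since these samples share 1 wild-type pool and their slides. The highest of so many correlations over 8 arrays run high even among unrelated genes, so they do not show shared regulation. For Nfya the genes were Dcaf12 (Pearson's r 0.976), Bnip3 (0.973) and Fam189b (0.972), and for Nfyb Atn1 (0.953), Pbk (0.945) and Nefh (0.938). For Nfyc they were H2-D1 (0.948), Vps35l (0.947) and Snrnp200 (0.942). For Sp1 they were Mtmr3 (0.978), Rsph9 (0.976) and Tfeb (0.97), for Sp3 Rtl5 (0.979), Zfp143 and Klc1 (both 0.956), and for Sp4 Slu7 (0.98), Tnrc6b (0.977) and Chd3 (0.973). The 6 factors themselves were left out of the genes compared. No gene of the lists above was among those named.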

How the data were processed

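RNA of picked colonies was amplified from 100 ng and labelled with an Agilent 2-colour kit, per the labels' protocols. Spot and local background intensity values were read with Agilent Feature Extraction 11.5.1.1 from arrays of mm9 probes, per the file headers. The authors also deposited log2 values of each channel, loess normalized by name. Ratios formed from them here served as an alternative. They correlated with the values computed here with Pearson's r of 0.978 to 0.989 per array, and 68 cells of that table held no number.

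The analysis used limma 3.58.1 in R 4.3.3, with the packages data.table (version 1.17.8) and statmod (version 1.5.0). Median spot signals were corrected by normexp with median background and an offset of 50, normalized by loess within arrays without control spots, and averaged over the spots of a probe. Outlier-flagged spots (1719) were set missing. A probe was kept if well above background in at least 3 of 4 samples of 1 genotype or in 5 of 10 wild-type channels. RefSeq accessions (GRCm38.p6) gave a symbol to 58.3% of probes, and the rest stayed unnamed. The wild-type comparisons used all 10 arrays with a dye term and reversed sign on exchanged-dye arrays (7 residual and 3.17 prior degrees of freedom, median SE 0.0725). The pooled RNA repeats that of the single samples and so counts it again, and a pool array weighs more in this fit than a single sample. The mutants were compared on the 8 single-sample arrays (6 and 3.08, median SE 0.106). Benjamini-Hochberg adjustment covered 28177 probes, with a threshold of 0.05. The comparisons that involve Cdk6-K43M were tested on simulated data. The number of arrays limits the precision.

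The brightest kept probe stood for a gene of a list. Named were all members, and from each list and comparison up to 3 genes with the smallest p, or all where 5 or fewer passed. Ccnd1, Prmt5 and the per-sample values of list genes were added after their values were seen. The members and lists were chosen with earlier results of these data known. Promoters were searched in Python 3.11.15, and figures used matplotlib 3.10.9 and pandas 2.3.3. Alternatives covered background correction, normalization, filter, probe unit, slide, dye, pool spread and left-out samples. Leaving out a pool array was added after seeing the data.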

Additional observations from a re-analysis of the deposited data

Results flagged for a closer look

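Of 20 groups of 4 samples tested for a sample far from the others, 2 held one, and chance gives about 1 in 20. For the Nfyb probe A_55_P2017476, Cdk6-/- replicate 2 had a log2 ratio of -0.10, and its gap to the nearest sample was 0.838 of the group's range, above Dixon's critical value of 0.829. For the Nfyc probe A_55_P2061456, Cdk6-/- replicate 1 had a log2 ratio of -0.26, with a gap of 0.839 of the range. Neither probe passed the test in Cdk6-/-.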

How the results depend on the processing

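Of 55 counts of called factor probes under alternatives, 51 stayed within 1.5 times the reported count. In Cdk6-/- and between the mutants the reported count was 0, so there this means only that 0 probes passed again. Between the mutants 0.454% of all kept probes passed, so a count of 0 there says little. In Cdk6-K43M the count of 3 was 1 with median centring, 1 with standard errors widened for the wild-type pool (Nfyc) and 0 without the Cdk6-K43M pool array. In Cdk6-/- the count of 0 was 1 on single-sample arrays without a dye term (Nfyc). Leaving out each replicate gave 3 to 4 calls in Cdk6-K43M and 0 in the other comparisons. Over all settings Nfyc lay between -0.50 and -0.08, Sp1 between -0.37 and -0.12 and Sp4 between -0.47 and -0.19 in Cdk6-K43M.

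Median centring shifted the median of all probes in Cdk6-K43M to 0.112 and made 88.2% of calls higher, against 49.7% with loess (63.3% against 46.2% in Cdk6-/-, 64.6% against 49.2% between the mutants). Its call was Nfya (0.21, adjusted p = 0.0463), and Nfyc, Sp1 and Sp4 then stood at -0.19, -0.23 and -0.30 relative to that median. It turned the Cdk6-K43M values of Nfyb (0.08, 0.10 and 0.07 for its probes), Nfyc A_55_P2061456 (0.03), Sp3 (0.08), Birc5 (0.04) and Top2a (0.01), and between the mutants those of Nfyc A_55_P2061456 (0.05) and Ppm1d (0.04). Single-sample arrays turned Sp4 (0.08), Nfya (0.04) and Mdm4 (-0.06) in Cdk6-/- and Nfyb A_55_P2017476 (0.07) and Sp3 (0.08) in Cdk6-K43M. In Cdk6-/- both Agilent's processed signals and leaving out Cdk6-/- replicate 2 put Mdm4 at -0.01. Without the Cdk6-/- pool array Sp4 was 0.01 and Nfyc A_51_P489845 was 0.07 in Cdk6-/-. Nfyb A_55_P2630616, at 0.00 between the mutants, was 0.05 with processed signals, 0.08 with median centring, 0.01 in the authors' deposited table, 0.02 with all 10 arrays and -0.06 to 0.06 without single replicates. The causes were not tested.

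Calls over all 28177 probes ranged with the setting. In Cdk6-K43M they were 5705, with 1543 under widened standard errors, 639 without its own pool array and 3319 without the Cdk6-/- pool array. In Cdk6-/- they were 1917, with 3846 on single-sample arrays, 132 under widened standard errors, 796 with slide as a block, 1009 with median centring, 71 without its own pool array, 424 without the Cdk6-K43M pool array and 742 to 2345 without single replicates. Between the mutants they were 128, with 38 with slide as a block, 675 with all 10 arrays and 49 to 104 without single replicates. Under widened standard errors no gene of the lists passed in Cdk6-/-, and in Cdk6-K43M 1 NF-Y and 1 SP target gene remained lower. Without the Cdk6-K43M pool array no NF-Y or SP target gene passed in Cdk6-K43M. With the replicate number as a block, 0 factor probes and 41 of all probes passed between the mutants. Same-numbered samples correlated with r of 0.0888, -0.0638, 0.23 and 0.154. Cdk6-/- replicates 3 and 4, but not 1 and 2, correlated best with the Cdk6-K43M sample of their own number. The labels do not say whether the numbers pair the samples, and these correlations cannot settle it.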
